A study of Homo sapiens with 48 samples.

Results

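The comparison described here asked how far the response to UPF1 siRNA in cells that carry the K498A form of UPF1 departed from the response in cells that carry wild-type UPF1. For each gene it is a difference of 2 responses, (K498A siUPF1 minus K498A siNT) minus (WT siUPF1 minus WT siNT), on the log2 scale. It used 12 of the 48 libraries of the series, 3 in each of the 4 groups, chosen by their labelled line and siRNA. A positive value means that RNA was higher in the K498A line, after allowing for both siNT groups, and a negative value that it was lower.

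All libraries came from Flp-In 293 T-REx cells, a HEK293-derived line with a defined integration site for a transgene. The K498A line stably expressed CLIP-tagged UPF1 with the K498A change and the WT line the unchanged protein with the same tag. For some values a further pair of lines is set beside them, DE636AA with CLIP-tagged UPF1 carrying that change and CLIP with the tag and no added UPF1. Every group still held the endogenous UPF1 gene, with siUPF1 libraries from cells given 40 nM of an siRNA against it for 72 h and siNT libraries from cells given 40 nM of a non-targeting siRNA for 72 h. Triplicates are described as biological replicates in the design text. Whether a stable line is 1 clone or a pool is not given in the sources used here.

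UPF1 is an ATP-dependent RNA helicase at the centre of nonsense-mediated mRNA decay (NMD), which degrades transcripts with a premature stop codon and many normal transcripts with features that resemble one. It acts with UPF2 and UPF3, is phosphorylated by the kinase SMG1, and then recruits factors such as SMG5 and SMG6, which lead to decay of the bound RNA. Transcripts of several of these factors are themselves NMD targets, so their levels are commonly read as a gauge of the pathway. The lysine changed in K498A lies in the ATP-binding (Walker A) motif and DE636 in the motif needed for ATP hydrolysis (Walker B).

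The changed codons are shown because the K498A and DE636AA lines are named for them. Each is in its place in the reference UPF1 coding sequence of chromosome 19 (GENCODE v29 transcript UPF1-201, 1118 codons, read 5′ to 3′), not in the transgene sequence. Capitals mark the codon or codons that the change replaces, and codons are counted from the start codon.
Codons 488 to 508, changed in K498A: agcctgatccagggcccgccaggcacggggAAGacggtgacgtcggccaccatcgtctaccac
Codons 626 to 647, changed in DE636AA: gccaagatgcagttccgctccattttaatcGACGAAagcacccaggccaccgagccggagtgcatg

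The 12 libraries held 21.3 to 47.1 M expected counts each, with group means of 39.1 ± 7.46 M in K498A siUPF1, 34.8 ± 6.27 M in K498A siNT, 31.0 ± 8.80 M in WT siUPF1 and 30.3 ± 1.72 M in WT siNT (SD, n = 3 each). The siUPF1 and siNT libraries separated on the first principal component, which held 39.5% of the variance. On the second, with 11.9%, WT siUPF1 replicate 3 stood apart at -35.4, against -15.3 to 10.5 for the other libraries, and it was also the shallowest at 21.3 M. Values without it are given beside several results. The 7 listed genes that HEK293 cells are known to express were above 1 CPM (reads scaled to a common library size) in all 12 libraries. Of 12 markers of other cell types 11 were in the table, and their summed level was 78.7 to 85.0 CPM in K498A siUPF1, 90.8 to 101 CPM in K498A siNT, 99.9 to 113 CPM in WT siUPF1 and 93.0 to 99.5 CPM in WT siNT. COL1A1, COL3A1 and EPCAM were above 1 CPM in all 12, INS had no count in any, and the part of these markers in the results was not tested.

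UPF1 itself was not called between the responses. It had 6023, 5466 and 6405 CPM in K498A siUPF1, 5566, 4821 and 5882 CPM in K498A siNT, 4328, 4348 and 5857 CPM in WT siUPF1 and 5188, 5033 and 5639 CPM in WT siNT. The 4 groups overlapped, and the difference of responses was 0.26 (SE 0.23, adjusted p = 0.717), or 0.43 and not called without WT siUPF1 replicate 3. Reads of the transgene and of the endogenous gene are counted together, so loss of the endogenous transcript cannot be read from these values in either line. In the CLIP line, which has no UPF1 transgene, the response of UPF1 was lower than in WT by 2.04 on the log2 scale (SE 0.23, adjusted p = 4.03e-08).

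Of 19129 genes tested, 623 differed between the K498A and WT responses (3.26%), 276 higher (1.44%) and 347 lower (1.81%), at an adjusted p under 0.05 in edgeR's quasi-likelihood test. Most differences were modest, with a median size of 0.62 among the higher genes and 0.56 among the lower, and only 44 and 16 were 2-fold or more. With siNT the lines differed in 5 genes (0.0261%), 2 higher (0.0105%) and 3 lower (0.0157%) in K498A. With siUPF1 they differed in 2322 (12.1%), 1032 higher (5.39%) and 1290 lower (6.74%) in K498A. In bulk RNA, fewer cells of a type and less RNA per cell cannot be told apart.

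In the joint fit of all 48 libraries the 2 responses were of like extent. Fitted to its own groups alone, the K498A response held 6613 called genes and the WT response 4227, so their relative extent depends on the fit. The counts below are from the joint fit. Of the 19129 genes 6247 changed in the K498A line (32.7%), 3094 rising (16.2%) and 3153 falling (16.5%), and 5211 in the WT line (27.2%), 2670 rising (14%) and 2541 falling (13.3%). Among the 276 higher genes, 140 rose in K498A and were not called in WT, 66 fell in WT and were not called in K498A, and 27 rose in K498A and fell in WT. Another 24 rose in both lines, 16 fell in both and 3 were called in neither. Among the 347 lower genes, 200 fell in K498A and were not called in WT, 79 rose in WT and were not called in K498A, and 27 fell in K498A and rose in WT. Another 22 fell in both, 16 rose in both and 3 were called in neither.

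**Figure D1:**
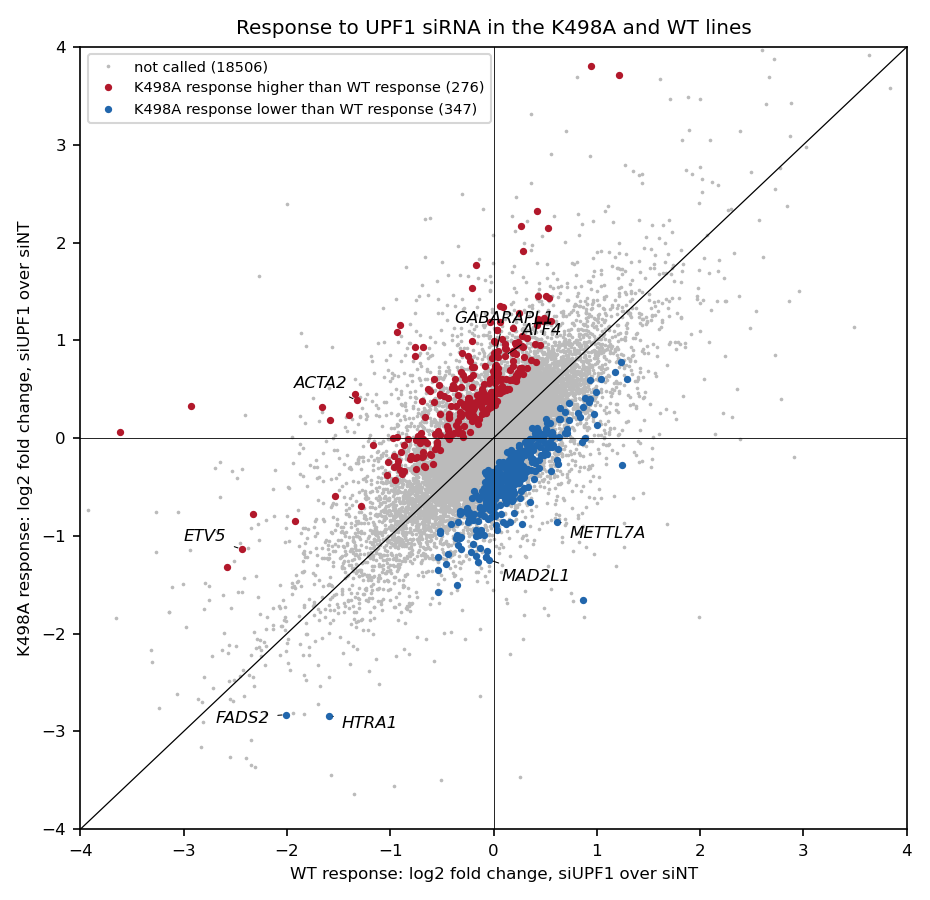
Log2 fold change of siUPF1 over siNT in the K498A line (vertical axis) and in the WT line (horizontal axis) for each gene tested, with the diagonal of equal responses. Red points are the 276 genes with a higher and blue points the 347 with a lower K498A response, and 48 genes lie outside the axes, which end at 4.

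The count of 623 moved with single libraries. It was 359 without WT siNT replicate 2, 384 without K498A siUPF1 replicate 2, 411 without K498A siNT replicate 1, and 511 without WT siUPF1 replicate 3, of which 422 were among the 623. Leaving out CLIP siUPF1 replicate 2, which enters only through the shared estimate of the spread, raised it to 1144. That library had 0.631% mitochondrial counts, the lowest of the 48 libraries, and 36.8 CPM of UPF1. CLIP siUPF1 replicates 1 and 3 had 18.2 and 17.7 CPM of UPF1.

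The genes called in each direction differed in kind and length, as a description with no test. With gene types from GENCODE v29, 98% of the 345 matched lower genes and 85.3% of the 266 matched higher genes were protein coding, beside 76.5% of the 18396 matched genes tested. Among protein-coding genes the median transcript length was 4073 bases for the higher genes and 2971 bases for the lower, beside 3421 bases for all tested. In the fifth with the shortest transcripts 19 genes were higher and 86 lower, and in the fifth with the longest 56 were higher and 45 lower. GC content differed little, with medians of 49.3% for the higher genes, 48.3% for the lower and 49.1% for all tested. The part of transcript length and GC content in the results was not tested.

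The lines already differed in a few genes with siNT. PCDH19, a protocadherin, had 22.3, 17.5 and 16.8 CPM in K498A siNT, against 11.5, 11 and 11.3 CPM in WT siNT (log2 0.75, SE 0.15, adjusted p = 0.0331). SLC7A11, the cystine transporter, had 25.01, 30.6 and 26.9 CPM in K498A siNT, against 45.2, 44.3 and 48.6 CPM in WT siNT (-0.74, SE 0.14, adjusted p = 0.0331). Neither pair of groups overlapped, and neither gene was called in the difference of responses. In the 6 fits that left out 1 siNT library, PCDH19 lost its call in 4 and SLC7A11 in 5. The other 3 genes, named after their values were seen, were CEBPE at 2.30 to 3.85 CPM in K498A siNT and 0.0686 to 0.154 CPM in WT siNT, CSF3R at 0 to 0.0579 CPM in K498A siNT and 0.378 to 0.863 CPM in WT siNT, and NPAS4 at 0 to 0.0579 CPM in K498A siNT and 0.339 to 0.618 CPM in WT siNT. Leaving out 1 library at a time gave 1 to 6 genes, with 1 left without K498A siNT replicate 1 or WT siNT replicate 2, 2 without WT siNT replicate 1 or 3, and 3 without K498A siNT replicate 3.

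Among NMD factors, 5 of the 11 listed other than UPF1 were higher in the K498A response and none lower, beside 1.44% and 1.81% of all genes tested. Their differences had a median of 0.30, against -0.0051 over all genes tested. The higher factors included SMG5, UPF2, SMG1 and SMG9. The other 6, which did not pass the test, ran from -0.22 in UPF3A to 0.30 in SMG6. In the responses themselves, 4 of the 11 rose and 1 fell in the K498A line, and 1 rose and 3 fell in the WT line. Over all genes tested 16.2% rose and 16.5% fell in K498A, and 14% rose and 13.3% fell in WT.

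SMG5, which binds phosphorylated UPF1, had the largest difference of these factors. It had 266, 265 and 278 CPM in K498A siUPF1, 155, 173 and 178 CPM in K498A siNT, 132, 147 and 164 CPM in WT siUPF1 and 171, 189 and 191 CPM in WT siNT. All 3 K498A siUPF1 libraries lay above the other 9, and the WT siUPF1 libraries lay below those of WT siNT. It rose in K498A by 0.68 (SE 0.10, adjusted p = 1.22e-06) and fell in WT by 0.31 (SE 0.10, adjusted p = 0.0156), a difference of 0.99 (SE 0.14, adjusted p = 2.18e-05).

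UPF2, the partner that activates UPF1, had 147, 154 and 129 CPM in K498A siUPF1, 86.7, 90.0 and 82.0 CPM in K498A siNT, 103, 106 and 78.0 CPM in WT siUPF1 and 93.8, 94.8 and 96.8 CPM in WT siNT. The K498A siUPF1 libraries were again the highest, while the WT siUPF1 libraries spanned those of WT siNT. The difference was 0.72 (SE 0.14, adjusted p = 0.00174). SMG1, the UPF1 kinase, differed by 0.65 (SE 0.11, adjusted p = 0.00027), with means of 554 ± 27.7 CPM in K498A siUPF1, 349 ± 17.6 CPM in K498A siNT, 387 ± 34.5 CPM in WT siUPF1 and 383 ± 6.13 CPM in WT siNT (SD, n = 3 each). Reads of SMG1 can be shared with its pseudogene copies, which makes its level uncertain.

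SMG9, a subunit of the SMG1 kinase complex, passed narrowly at 0.40 (SE 0.12, adjusted p = 0.0456), and its value came from the WT line. Its response was 0.06 in K498A (SE 0.08, adjusted p = 0.65), and it fell in WT by 0.34 (SE 0.08, adjusted p = 0.00144). SMG5, UPF2 and SMG1 kept their call whichever of the 12 libraries was left out, and without WT siUPF1 replicate 3 they stood at 1.07, 0.60 and 0.59, with 4 of the 11 factors called.

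**Figure D2:**
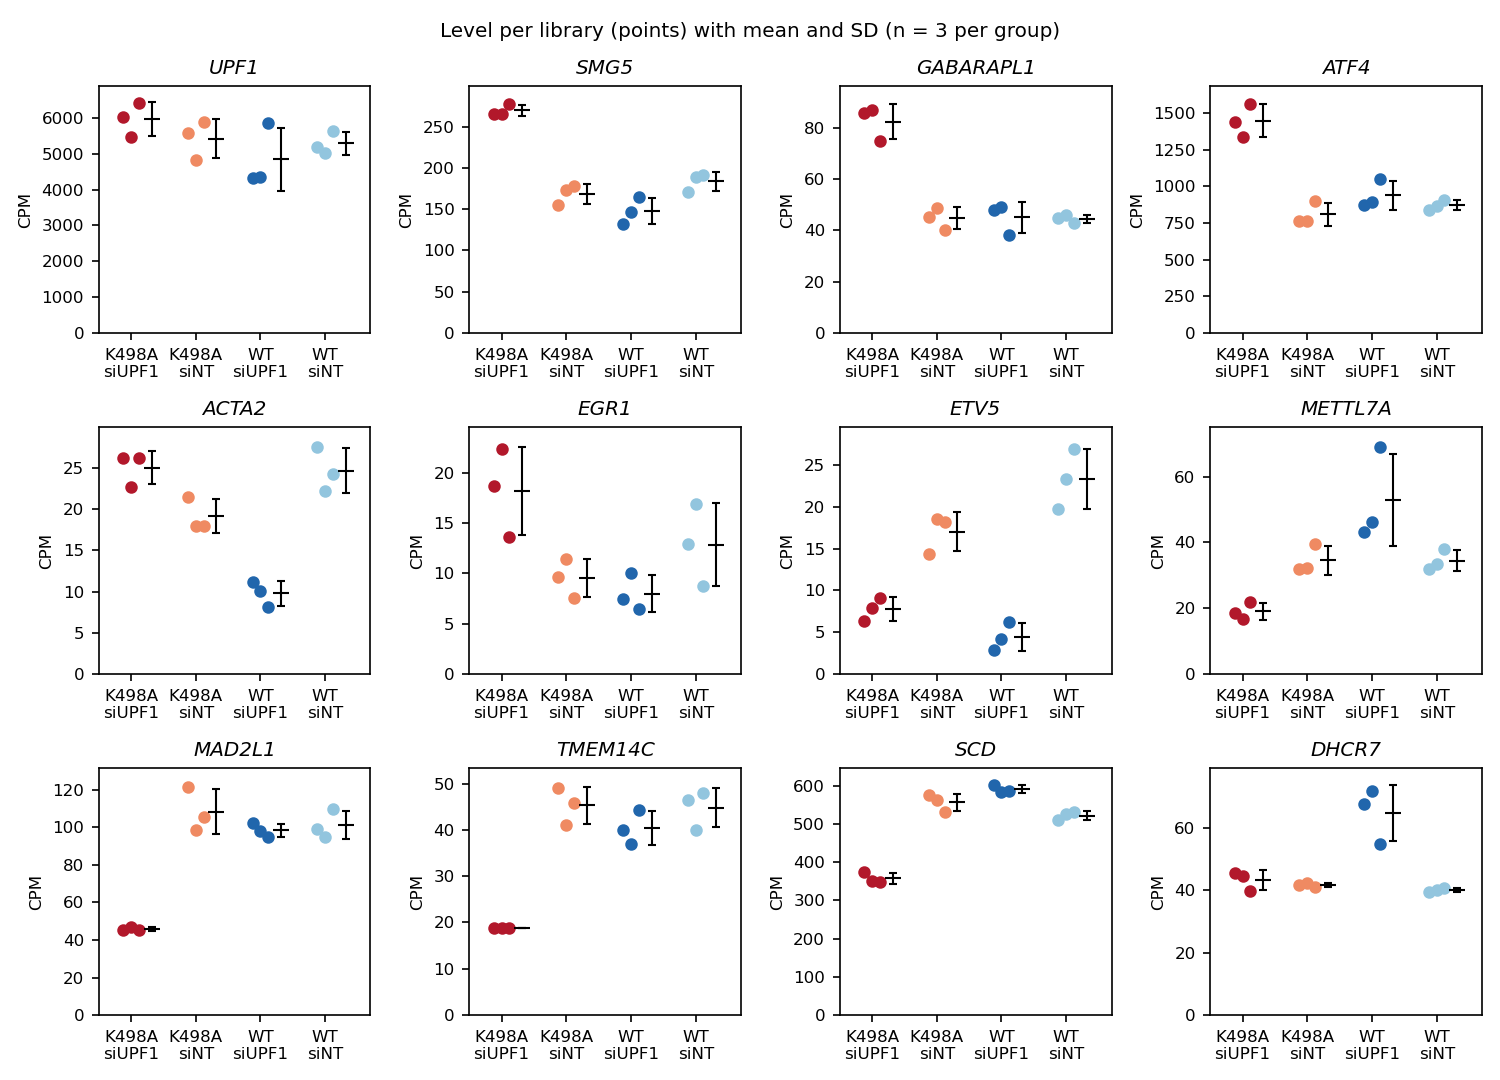
Level in CPM of 12 genes in each of the 12 libraries (points), with the mean and SD of each group of 3 (black), K498A siUPF1, K498A siNT, WT siUPF1 and WT siNT in order. SMG5, GABARAPL1 and ATF4 were highest in K498A siUPF1, METTL7A, MAD2L1, TMEM14C and SCD were lowest there, and DHCR7 was highest in WT siUPF1.

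Commonly used NMD targets lay above WT in every case, though few passed the test. All 15 listed targets had a positive difference, 0.14 to 1.03 with a median of 0.50. The test called 4 of them higher, beside 1.44% of all genes tested. These were RP9P, ATF3, GABARAPL1 and ATF4. In the K498A line 8 of the 15 rose and none fell (median response 0.56), beside 16.2% of all genes rising. In the WT line 1 rose and none fell (median -0.04), beside 14% of all genes rising. The mean level of the 15 was 5.53 ± 0.02 log2 CPM in K498A siUPF1, 4.99 ± 0.03 in K498A siNT, 5.01 ± 0.06 in WT siUPF1 and 5.02 ± 0.03 in WT siNT (SD, n = 3 each).

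GABARAPL1, an autophagy protein of the ATG8 family, had 85.6, 86.8 and 74.6 CPM in K498A siUPF1, 45.2, 48.6 and 40.2 CPM in K498A siNT, 47.9, 49.2 and 38.1 CPM in WT siUPF1 and 44.6, 45.9 and 42.9 CPM in WT siNT. Only the K498A siUPF1 libraries stood apart, and the other 3 groups overlapped. The difference was 0.86 (SE 0.15, adjusted p = 0.000457). RP9P, a transcribed pseudogene, had 14.3, 13.98 and 14.2 CPM in K498A siUPF1, 7.47, 7.44 and 6.53 CPM in K498A siNT, 7.56, 7.77 and 4.06 CPM in WT siUPF1 and 5.83, 6.69 and 6.99 CPM in WT siNT. Its difference of 0.97 (SE 0.21, adjusted p = 0.0043) was 0.75 without WT siUPF1 replicate 3, which had the lowest level. As a pseudogene it may share reads with its parent gene, and it lost its call when the model was fitted to the 4 groups alone.

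ATF4, the main transcription factor of the integrated stress response, had 1441, 1338 and 1562 CPM in K498A siUPF1, 764, 761 and 902 CPM in K498A siNT, 872, 894 and 1053 CPM in WT siUPF1 and 840, 869 and 906 CPM in WT siNT. The K498A siUPF1 libraries lay above all others, and the difference was 0.73 (SE 0.11, adjusted p = 9.67e-05). ATF3, a stress-induced factor downstream of ATF4, had 83.0, 80.8 and 70.3 CPM in K498A siUPF1, 51.9, 54.8 and 42.8 CPM in K498A siNT, 48.01, 48.8 and 41.1 CPM in WT siUPF1 and 56.4, 63.0 and 50.5 CPM in WT siNT. It too was highest in K498A siUPF1, with a difference of 0.94 (SE 0.20, adjusted p = 0.00453).

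Among the targets that did not pass, GADD45B had the largest value (1.03, SE 0.32, adjusted p = 0.0668). BAG1, a co-chaperone, increased in both lines, by 1.51 in K498A (SE 0.14, adjusted p = 1.88e-10) and 1.00 in WT (SE 0.14, adjusted p = 9.13e-07), and the difference of 0.50 was not called (SE 0.20, adjusted p = 0.204). Without WT siUPF1 replicate 3 it was 0.72 and passed. ERN1, the stress sensor IRE1 of the endoplasmic reticulum, gave 0.54 (SE 0.19, adjusted p = 0.126).

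Of 24 listed targets of ATF4 protein 2 were higher, STC2 and SLC3A2, none was lower, and the median was 0.14, or 0.04 without WT siNT replicate 3. Over all genes tested 1.44% were higher and 1.81% lower. In the K498A line 8 of the 24 rose and 2 fell (median response 0.23), beside 16.2% and 16.5% of all genes. In the WT line 6 rose and 3 fell (median -0.12), beside 14% and 13.3%. The mean level of the 24 was 5.90 ± 0.06 log2 CPM in K498A siUPF1 and 5.71 ± 0.10 in K498A siNT. In WT it was 5.885 ± 0.145 with siUPF1 and 5.886 ± 0.115 with siNT (SD, n = 3 each). Between the lines, the list median was -0.16 with siNT and -0.04 with siUPF1. STC2, a secreted glycoprotein hormone, differed by 0.70 (SE 0.19, adjusted p = 0.0266). SLC3A2, the heavy chain of amino acid transporters, differed by 0.41 (SE 0.12, adjusted p = 0.0479). With siUPF1, STC2 was higher in K498A than in WT by 0.43 (SE 0.13, adjusted p = 0.0261). SLC3A2 was not called there (0.17, SE 0.08, adjusted p = 0.222). STC2 lost its call in 6 of the 12 fits that left out 1 library and SLC3A2 in 10, with no member left without K498A siNT replicate 1, K498A siUPF1 replicate 3, WT siNT replicate 2 or 3, or WT siUPF1 replicate 1 or 2. The unfolded protein response list had a median of 0.03, with 1 of 16 members lower and none higher. That member, the disulfide isomerase PDIA6, had -0.10 in K498A (SE 0.07, adjusted p = 0.267) and rose in WT by 0.37 (SE 0.07, adjusted p = 6.92e-05), a difference of -0.47 (SE 0.10, adjusted p = 0.0027).

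Non-coding hosts of small nucleolar RNAs (snoRNAs), whose spliced transcripts are known NMD substrates, were mixed. Of 17 tested hosts 2 were higher and none lower, beside 1.44% and 1.81% of all genes tested. The range ran from -0.48 to 0.85. The median was 0.10, or 0.20 without WT siUPF1 replicate 3 and 0.06 without K498A siUPF1 replicate 3. EPB41L4A-AS1 had 81.4, 79.0 and 84.7 CPM in K498A siUPF1, 41.6, 45.5 and 44.8 CPM in K498A siNT, 44.3, 47.5 and 52.5 CPM in WT siUPF1 and 44.6, 47.8 and 47.5 CPM in WT siNT. It stood apart in K498A siUPF1 alone, with a difference of 0.85 (SE 0.11, adjusted p = 7.45e-06). It lies antisense to EPB41L4A, and the strand setting of the counting is not given, so reads of both may be mixed. SNHG7 differed by 0.78 (SE 0.17, adjusted p = 0.00513), but was not called with the 4 groups fitted alone. GAS5, a widely studied host, gave 0.10 (SE 0.16, adjusted p = 0.884).

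**Figure D3:**
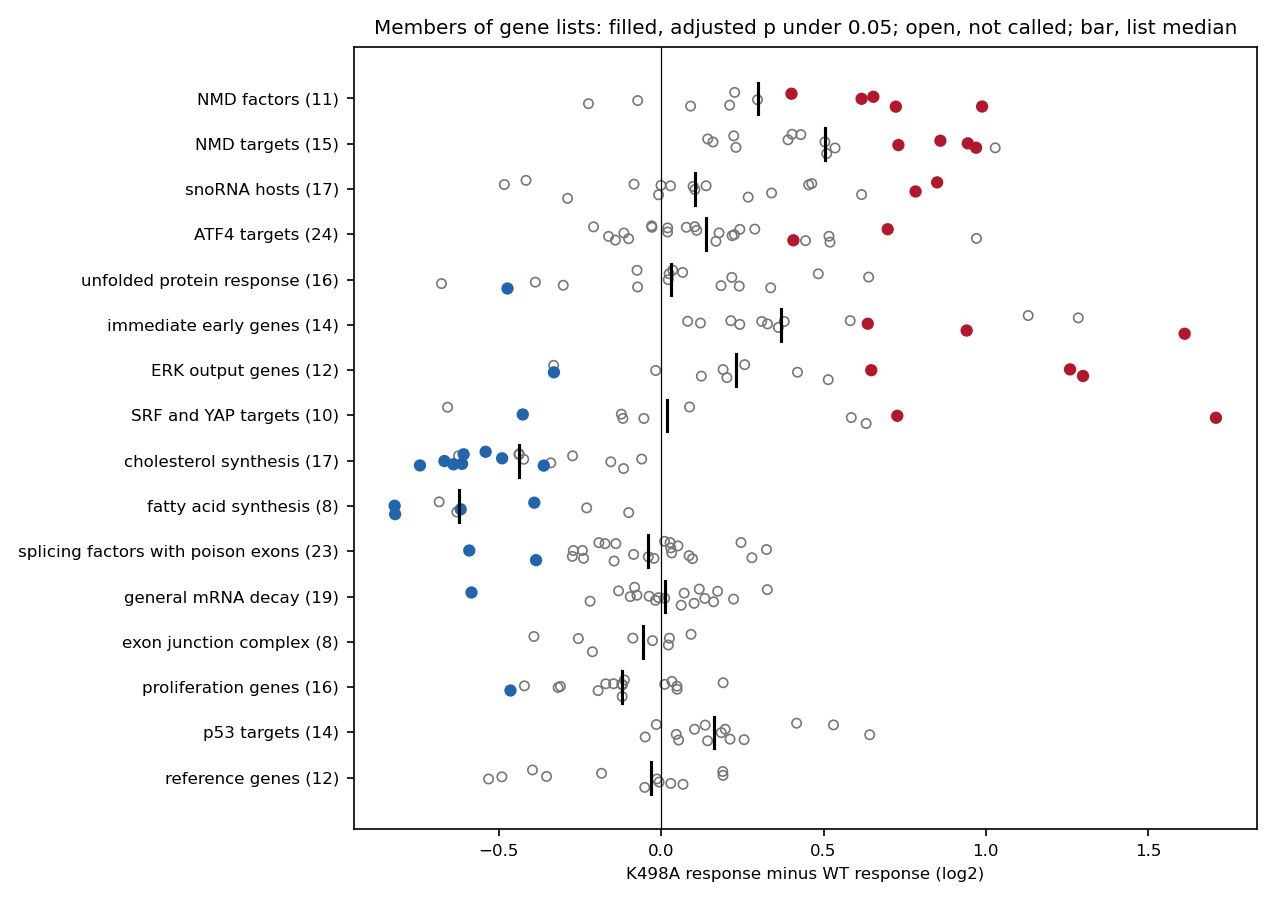
Difference of responses (K498A minus WT, log2) for each tested member of 16 gene lists, with the number of members in brackets. Filled points passed at an adjusted p under 0.05 (red higher, blue lower), open points did not, and the black bar is the list median; all NMD targets and immediate early genes lay above 0 and all cholesterol and fatty acid synthesis genes below it.

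The largest difference of all ranked genes was in ACTA2, which encodes smooth muscle actin. It had 26.2, 22.7 and 26.2 CPM in K498A siUPF1, 21.5, 18.0 and 18.0 CPM in K498A siNT, 11.2, 10.0 and 8.17 CPM in WT siUPF1 and 27.6, 22.2 and 24.2 CPM in WT siNT. The WT siUPF1 libraries were the lowest of the 12, while those of K498A siUPF1 overlapped WT siNT. Its response was 0.38 in K498A (SE 0.15, adjusted p = 0.051), it fell in WT by 1.32 (SE 0.16, adjusted p = 3.82e-08), and the responses differed by 1.71 (SE 0.22, adjusted p = 5.89e-06). ACTA2 shares exon sequence with FAS and ACTA2-AS1 on the opposite strand, where reads may be mixed. CYR61 and VCL, also listed for the actin-linked SRF and YAP programs, were called too, of 10 tested. Over all genes tested 3.26% were called. CYR61, a matricellular protein, was higher by 0.73 (SE 0.16, adjusted p = 0.0044) and VCL, the focal adhesion protein vinculin, lower at -0.43 (SE 0.10, adjusted p = 0.0111), and VCL lost its call without K498A siUPF1 replicate 3 (-0.38).

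Immediate early genes, which growth factors and stress induce within minutes, all had positive differences. Of 14 listed, 3 were higher (EGR1, FOSL1 and KLF6) and none was lower, beside 1.44% and 1.81% of all genes tested. The median was 0.37. The transcription factor EGR1 had 18.6, 22.3 and 13.6 CPM in K498A siUPF1, 9.65, 11.4 and 7.57 CPM in K498A siNT, 7.43, 10.0 and 6.44 CPM in WT siUPF1 and 12.9, 16.9 and 8.69 CPM in WT siNT. Its groups overlapped, with K498A siUPF1 and WT siNT sharing a range, and replicate 3 was the lowest of each group. The difference was 1.61 (SE 0.38, adjusted p = 0.00877), and without WT siNT replicate 2 it was 1.36 and not called.

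KLF6, a Krüppel-like factor, had 89.6, 86.2 and 75.4 CPM in K498A siUPF1, 50.3, 44.2 and 44.2 CPM in K498A siNT, 53.6, 52.6 and 54.2 CPM in WT siUPF1 and 45.4, 45.9 and 46.2 CPM in WT siNT. The K498A siUPF1 libraries lay well above the others, and the difference was 0.64 (SE 0.13, adjusted p = 0.00318). FOSL1, a partner of JUN, differed by 0.94 (SE 0.27, adjusted p = 0.0423) and lost its call in 9 of the 12 fits that left out 1 library. ARC and FOS had values of 1.28 (SE 0.41, adjusted p = 0.0762) and 1.13 (SE 0.37, adjusted p = 0.0914) that did not pass. Without WT siUPF1 replicate 3, 5 of the 14 were called.

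Most listed outputs of the ERK pathway fell with siUPF1 in both lines, and some fell less in K498A. Of 12 listed genes 8 fell in K498A and 9 in WT, beside 16.5% and 13.3% of all genes tested. In the difference 3 were higher and 1 lower, beside 1.44% and 1.81% of all genes (median 0.23, or 0.40 without WT siUPF1 replicate 3). ETV5, an ETS factor induced by ERK signalling that overlaps DGKG, had 6.30, 7.84 and 9.11 CPM in K498A siUPF1, 14.4, 18.5 and 18.2 CPM in K498A siNT, 2.92, 4.13 and 6.21 CPM in WT siUPF1 and 19.7, 23.3 and 26.9 CPM in WT siNT. Each siUPF1 group lay below its siNT group, and the K498A siUPF1 libraries were above those of WT siUPF1. It fell by 1.14 in K498A (SE 0.21, adjusted p = 5.81e-05) and by 2.44 in WT (SE 0.23, adjusted p = 1.46e-10), a difference of 1.30 (SE 0.31, adjusted p = 0.0112) that was 1.055 and not called without WT siUPF1 replicate 1.

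SPRY4, a feedback inhibitor of ERK signalling, had 2.19, 2.22 and 2.81 CPM in K498A siUPF1, 4.82, 6.39 and 6.84 CPM in K498A siNT, 1.22, 0.925 and 0.887 CPM in WT siUPF1 and 4.77, 5.92 and 7.84 CPM in WT siNT. Like ETV5 it decreased in both lines, by less in K498A, with a difference of 1.26 (SE 0.29, adjusted p = 0.00783). DUSP5, a phosphatase of nuclear ERK, rose by 0.35 in K498A (SE 0.11, adjusted p = 0.0123) and fell by 0.30 in WT (SE 0.11, adjusted p = 0.041). Its difference of 0.65 (SE 0.16, adjusted p = 0.0118) was not called without K498A siNT replicate 3 (0.56) or WT siNT replicate 2 (0.55). The lower gene was CCND1, cyclin D1, at -0.33 (SE 0.09, adjusted p = 0.0401), which lost its call in 9 of the 12 fits that left out 1 library.

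The 15 highest genes also included the following. PPP1R15A (GADD34), which directs dephosphorylation of eIF2α, had 134, 141 and 124 CPM in K498A siUPF1, 57.7, 66.7 and 61.2 CPM in K498A siNT, 61.4, 78.8 and 78.0 CPM in WT siUPF1 and 64.4, 82.9 and 65.3 CPM in WT siNT. It was highest in K498A siUPF1, the other groups overlapped, and the difference was 1.07 (SE 0.25, adjusted p = 0.00866). ZFAND2A, a proteasome-associated protein induced by arsenite, had 17.9, 19.4 and 23.3 CPM in K498A siUPF1, 9.65, 8.59 and 9.91 CPM in K498A siNT, 10.1, 11.1 and 12.2 CPM in WT siUPF1 and 10.1, 11.96 and 10.4 CPM in WT siNT. It showed the same order, with a difference of 1.07 (SE 0.18, adjusted p = 0.000242).

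PDRG1, a gene regulated by p53 and DNA damage, had 39.0, 39.3 and 43.3 CPM in K498A siUPF1, 26.0, 24.04 and 29.8 CPM in K498A siNT, 17.5, 15.9 and 21.1 CPM in WT siUPF1 and 22.9, 22.6 and 24.8 CPM in WT siNT. It increased in K498A and decreased in WT, and differed by 0.98 (SE 0.13, adjusted p = 9.5e-06). The rest of the 15 were DNAH6, an axonemal dynein heavy chain (1.10), RGAG4 (0.94), the ubiquitin ligase RNF122 (0.92), TNFAIP3, the inhibitor of NF-κB signalling A20 (1.18), EPPK1, the cytoskeletal linker epiplakin (1.09), FILIP1L (1.04) and ZNF836 (0.95). DNAH6, RGAG4 and RNF122 kept their calls in all 12 fits without 1 library, though DNAH6 lost its call with the 4 groups fitted alone, whereas TNFAIP3 lost its call in 5, EPPK1 in 9, FILIP1L in 4 and ZNF836 in 6, with differences of 0.79 to 1.31 over these fits. Listed p53 targets had a median of 0.16, or 0.11 without K498A siNT replicate 2, and none of 14 was called.

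Of 17 listed genes of cholesterol synthesis 8 were lower in the K498A response and none higher, beside 1.81% and 1.44% of all genes tested. All 17 had a negative difference, -0.74 to -0.06 with a median of -0.44. In the K498A line 8 of the 17 fell and 1 rose (median -0.29), beside 16.5% and 16.2% of all genes. In the WT line 2 fell and 6 rose (median 0.17), beside 13.3% and 14%. The mean level of the 17 was 6.09 ± 0.04 log2 CPM in K498A siUPF1, 6.32 ± 0.07 in K498A siNT, 6.43 ± 0.03 in WT siUPF1 and 6.22 ± 0.05 in WT siNT (SD, n = 3 each). The genes called lower included IDI1 and FDPS of the isoprenoid steps, FDFT1 and SQLE, which make and oxidise squalene, and LSS and DHCR7 of the later steps.

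FDFT1, squalene synthase, had 117, 112 and 107 CPM in K498A siUPF1, 164, 146 and 166 CPM in K498A siNT, 162, 158 and 151 CPM in WT siUPF1 and 140, 131 and 149 CPM in WT siNT. K498A siUPF1 held the 3 lowest libraries, and the difference was -0.67 (SE 0.11, adjusted p = 0.000176). SQLE, squalene epoxidase, showed the same pattern, with 101 ± 6.75 CPM in K498A siUPF1, 133 ± 9.25 CPM in K498A siNT, 143 ± 10.4 CPM in WT siUPF1 and 123 ± 10.4 CPM in WT siNT (SD, n = 3 each), and a difference of -0.61 (SE 0.12, adjusted p = 0.00123). DHCR7, the last enzyme of the pathway, instead differed through the WT line. It had 45.5, 44.7 and 39.7 CPM in K498A siUPF1, 41.8, 42.2 and 40.9 CPM in K498A siNT, 67.6, 71.9 and 54.8 CPM in WT siUPF1 and 39.6, 39.9 and 40.6 CPM in WT siNT.

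WT siUPF1 alone stood above the rest for DHCR7, with a response of 0.06 (SE 0.08, adjusted p = 0.631) in K498A, a rise of 0.70 (SE 0.08, adjusted p = 8.2e-09) in WT and a difference of -0.64 (SE 0.11, adjusted p = 0.000319). IDI1, an isomerase of isoprenoid precursors, gave -0.61 (SE 0.17, adjusted p = 0.0296) and FDPS, which makes farnesyl diphosphate, -0.36 (SE 0.09, adjusted p = 0.0116). LSS, lanosterol synthase, had the largest value, -0.74 (SE 0.20, adjusted p = 0.0237), and lost its call in 6 of the 12 fits. The count of 8 was 5 without K498A siUPF1 replicate 2 or without WT siNT replicate 1, 4 without WT siNT replicate 2, and 5 with the 4 groups fitted alone.

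All 8 listed genes of fatty acid synthesis had a negative difference, with a median of -0.62. SCD, FADS2, ACLY and ACACA were called lower, beside 1.81% of all genes tested. SCD, the desaturase that makes oleate, had 374, 351 and 349 CPM in K498A siUPF1, 576, 564 and 533 CPM in K498A siNT, 603, 585 and 587 CPM in WT siUPF1 and 510, 526 and 531 CPM in WT siNT. The K498A siUPF1 libraries were far below the other 9, and the difference was -0.82 (SE 0.12, adjusted p = 2.18e-05). FADS2, a polyunsaturated fatty acid desaturase, fell steeply in both lines, by 2.83 in K498A (SE 0.14, adjusted p = 7.73e-18) and 2.01 in WT (SE 0.14, adjusted p = 6.96e-14).

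The difference in FADS2 was -0.82 (SE 0.19, adjusted p = 0.00898), and it was not called without K498A siUPF1 replicate 2 (-0.74) or WT siUPF1 replicate 3 (-0.67). FADS2 overlaps FADS1 and FEN1, where reads may be mixed. ACLY, which makes cytosolic acetyl-CoA, differed by -0.62 (SE 0.10, adjusted p = 0.000203) and ACACA, acetyl-CoA carboxylase, by -0.39 (SE 0.08, adjusted p = 0.0034). ACLY declined more in K498A, while ACACA gave 0.01 in K498A (SE 0.06, adjusted p = 0.907) and rose in WT by 0.40 (SE 0.06, adjusted p = 1.09e-06).

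The lowest ranked gene was METTL7A, a methyltransferase-like protein of lipid droplets and the endoplasmic reticulum. It had 18.5, 16.8 and 21.9 CPM in K498A siUPF1, 31.9, 32.2 and 39.6 CPM in K498A siNT, 43.3, 46.3 and 68.9 CPM in WT siUPF1 and 31.95, 33.4 and 38.0 CPM in WT siNT. It moved in opposite directions, with K498A siUPF1 lowest and WT siUPF1 highest of the 4 groups, and differed by -1.47 (SE 0.18, adjusted p = 1.75e-06), or -1.23 without WT siUPF1 replicate 3. HTRA1, a secreted serine protease, fell in both lines, to 2.02, 1.19 and 1.85 CPM in K498A siUPF1, against 12.4, 10.7 and 13.3 CPM in K498A siNT. In the WT line it had 3.32, 3.39 and 4.02 CPM with siUPF1 and 10.6, 9.28 and 12.3 CPM with siNT, and the difference was -1.25 (SE 0.27, adjusted p = 0.00387).

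Most of the other lowest genes fell in K498A and were not called in WT. MAD2L1, a core protein of the spindle checkpoint, had 45.1, 47.1 and 45.2 CPM in K498A siUPF1, 122, 98.5 and 105 CPM in K498A siNT, 102, 98.0 and 95.0 CPM in WT siUPF1 and 99.3, 95.0 and 110 CPM in WT siNT. The K498A siUPF1 libraries lay below the other 9, which overlapped, and the difference was -1.20 (SE 0.21, adjusted p = 0.000417). TMEM14C, a mitochondrial protein that haem synthesis needs in mouse, had 18.9, 18.8 and 18.8 CPM in K498A siUPF1, 49.1, 41.1 and 45.8 CPM in K498A siNT, 39.9, 37.0 and 44.3 CPM in WT siUPF1 and 46.4, 40.0 and 47.9 CPM in WT siNT. It showed the same separation, with a difference of -1.12 (SE 0.16, adjusted p = 3.63e-05).

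SUCLG2, a subunit of succinyl-CoA ligase in the citric acid cycle, had 17.4, 16.1 and 17.0 CPM in K498A siUPF1, 41.3, 34.9 and 33.9 CPM in K498A siNT, 34.1, 32.4 and 28.4 CPM in WT siUPF1 and 36.0, 33.4 and 34.9 CPM in WT siNT, a difference of -0.99 (SE 0.13, adjusted p = 9.5e-06). Likewise low in K498A siUPF1 were FAM64A, a mitotic protein (-1.16, SE 0.21, adjusted p = 0.000786), MATN2, the matrix protein matrilin-2 (-1.15, SE 0.15, adjusted p = 5.53e-06), ALDH1A3, which makes retinoic acid (-1.09, SE 0.21, adjusted p = 0.00122), and GSTA4, a glutathione transferase (-1.03, SE 0.20, adjusted p = 0.00175). SCIN, an actin-severing protein, fell in K498A by 0.65 (SE 0.14, adjusted p = 0.00024), rose in WT by 0.35 (SE 0.13, adjusted p = 0.0427), and differed by -1.01 (SE 0.19, adjusted p = 0.000995). The 10 lowest genes kept their calls in all 12 fits that left out 1 library. Of the 25 highest and lowest genes 11 share exon sequence with another annotated gene, 9 of them with one on the opposite strand.

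Other lists held single changes, beside 1.44% higher and 1.81% lower over all genes tested. Of 23 splicing factors with poison exons 2 were lower and none higher, HNRNPA2B1 (-0.59, SE 0.11, adjusted p = 0.00067) and PTBP1 (-0.39, SE 0.09, adjusted p = 0.00568), with a list median of -0.04. HNRNPA2B1 had 1332, 1471 and 1406 CPM in K498A siUPF1, 2246, 2379 and 2280 CPM in K498A siNT, 2156, 2275 and 2157 CPM in WT siUPF1 and 2344, 2510 and 2318 CPM in WT siNT, so that K498A siUPF1 stood well below the rest. Of 19 general mRNA decay factors the RNA helicase DDX6 was lower (-0.59, SE 0.13, adjusted p = 0.00434), and of 16 proliferation genes the thymidylate synthase gene TYMS (-0.47, SE 0.11, adjusted p = 0.0104). Of 10 interferon-stimulated genes OAS3 was lower (-1.03, SE 0.25, adjusted p = 0.0109). Its level was low, with means of 1.43 CPM in K498A siUPF1, 4.25 CPM in K498A siNT, 2.04 CPM in WT siUPF1 and 2.985 CPM in WT siNT. With siUPF1, OAS3 was not called between the lines (-0.53, SE 0.18, adjusted p = 0.0528). Of 8 TXNIP and arrestin-domain genes ARRDC2 was higher (0.59, SE 0.14, adjusted p = 0.0144), a call lost without K498A siNT replicate 2 or WT siUPF1 replicate 1. None of 8 exon junction complex genes, 12 reference genes, 84 cytoplasmic ribosomal protein genes, 16 mitochondrially encoded genes or 7 HEK293 markers was called. Ribosomal protein genes have many near-identical pseudogene copies, which makes their counts uncertain.

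The K498A response was also set against that of the CLIP line, which has no UPF1 transgene. Taken against WT, the CLIP response differed in 2267 genes (11.9%), 1545 higher (8.08%) and 722 lower (3.77%). Fitted to their own groups alone, the counts against WT were near each other, 490 for K498A and 497 for CLIP. Each of these fits used the spread of its own libraries, so the counts do not compare the size of the differences. The K498A and CLIP comparisons share the WT libraries, so their values are given side by side. NMD targets differed from WT by a median of 0.50 in K498A and 1.10 in CLIP, with 4 and 14 of 15 called higher, and NMD factors by 0.30 in K498A and 0.77 in CLIP, with 5 and 9 of 11 called higher. Cholesterol synthesis genes differed by -0.44 in K498A and -0.41 in CLIP, with 8 of 17 called lower in both.

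The direct test of the K498A response against the CLIP response called 2599 genes (13.6%), 769 higher (4.02%) and 1830 lower (9.57%) in K498A. NMD targets were on the lower side, with 9 of 15 called lower, none higher and a median of -0.50. Of the NMD factors 6 of 11 were called lower, among them SMG1 (-0.86, SE 0.11, adjusted p = 1.19e-06), and of 17 snoRNA hosts 11. RP9P was lower in K498A by 1.30 (SE 0.20, adjusted p = 2.24e-05) and GABARAPL1 by 0.50 (SE 0.15, adjusted p = 0.024). SMG5 (-0.29, SE 0.14, adjusted p = 0.173) and ATF4 (0.04, SE 0.11, adjusted p = 0.858) were not called. Without CLIP siUPF1 replicate 1 the test called 4483 genes, without K498A siNT replicate 3 it called 1613, and fitted to its own 4 groups 339.

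A different set lay further from WT in K498A than the CLIP line did. These genes were named for their K498A values, which also enter the direct test. ACTA2 was higher in the K498A response than in that of CLIP by 1.44 (SE 0.22, adjusted p = 1.64e-05) and DNAH6 by 1.18 (SE 0.25, adjusted p = 0.000989). MAD2L1 was lower than in CLIP at -1.03 (SE 0.21, adjusted p = 0.000823), FAM64A at -1.07 (SE 0.21, adjusted p = 0.000565), TMEM14C at -0.79 (SE 0.16, adjusted p = 0.000962), ALDH1A3 at -0.96 (SE 0.21, adjusted p = 0.0015), SCD at -0.57 (SE 0.12, adjusted p = 0.000745) and TYMS at -0.46 (SE 0.11, adjusted p = 0.00356). In CLIP these 6 lower genes gave -0.33 to -0.0029 against WT and none was called. The CLIP siUPF1 libraries were widely split for MAD2L1, at 88.65 ± 35.04 CPM, beside an SD of 5.763 CPM in CLIP siNT. TMEM14C had 33.28 ± 9.286 CPM there, beside an SD of 5.17 CPM. The SD was also larger with siUPF1 for FAM64A, SCD and TYMS, and smaller for ALDH1A3, ACTA2 and DNAH6. The part of CLIP siUPF1 replicate 2 in these single-gene values was not tested. METTL7A (0.27, SE 0.18, adjusted p = 0.336), MATN2 (0.02, SE 0.15, adjusted p = 0.945) and FDFT1 (0.02, SE 0.11, adjusted p = 0.934) were not called against CLIP.

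**Figure D4:**
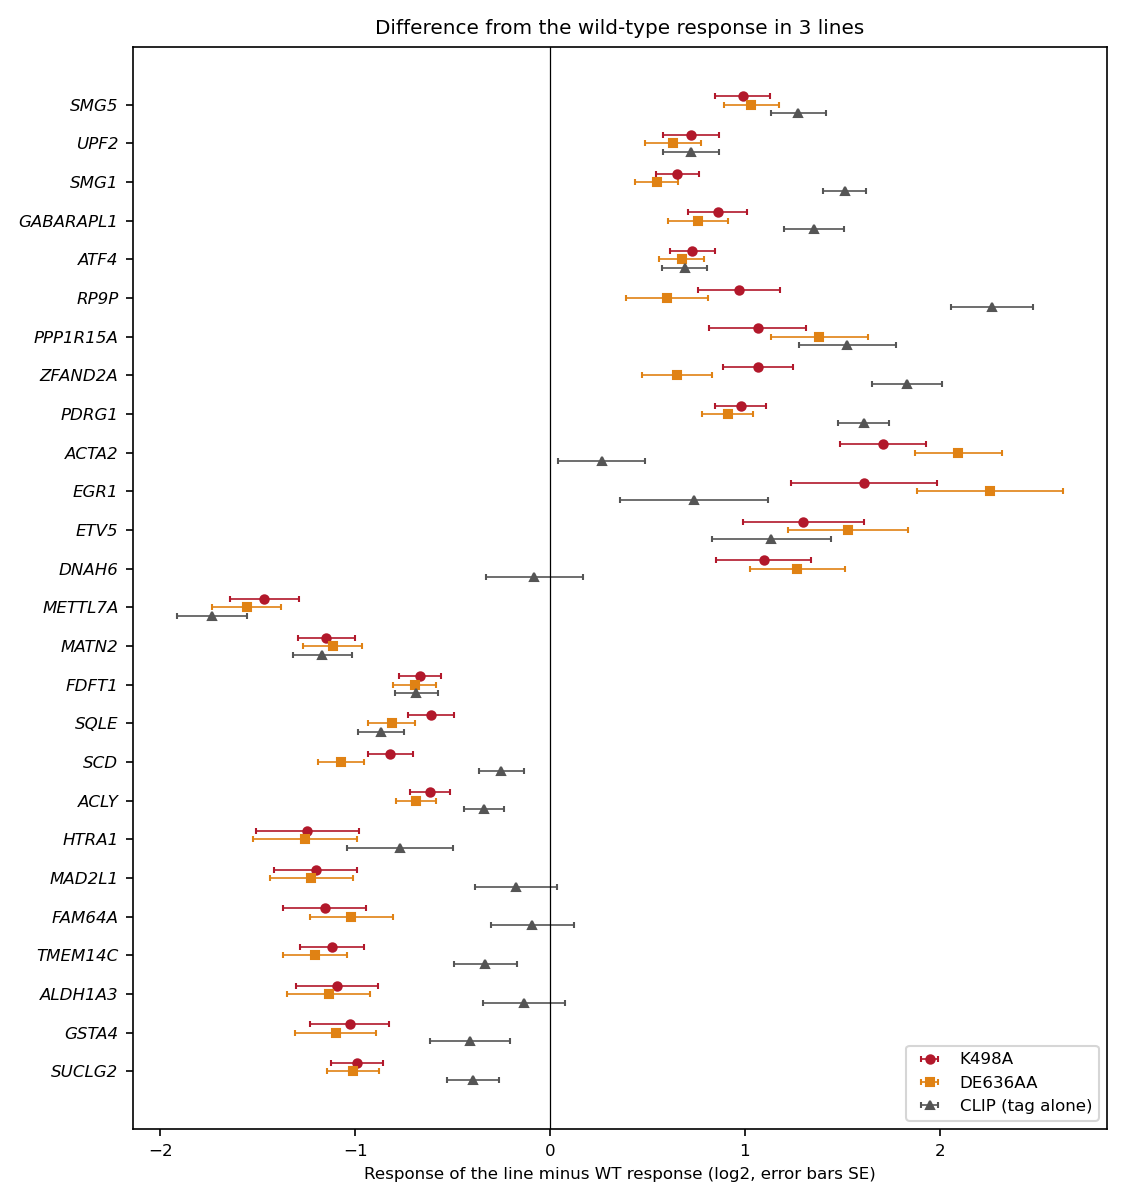
Difference from the WT response (log2, error bars SE) of 26 genes in the K498A (circles), DE636AA (squares) and CLIP (triangles) lines, all measured against the same WT libraries. With the filter on low counts, no gene passed the test between K498A and DE636AA. CLIP lies further right for RP9P, SMG1 and ZFAND2A and near 0 for MAD2L1, FAM64A, ALDH1A3 and DNAH6.

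With the filter on low counts, no gene passed the test between the K498A and DE636AA responses. The count was 0 of 19129 (0%) in edgeR and in DESeq2. An unadjusted p under 0.05 was found for 262 genes, fewer than that threshold would pass with no true differences. Without the filter 42 genes were called, 18 higher and 24 lower in K498A. Against WT, the DE636AA response differed in 860 genes (4.5%), 340 higher (1.78%) and 520 lower (2.72%), in a comparison that shares the WT libraries with that of K498A. ACTA2 differed from WT by 1.71 in K498A and 2.10 in DE636AA, SMG5 by 0.99 and 1.03, METTL7A by -1.47 and -1.56, MAD2L1 by -1.20 and -1.23 and TMEM14C by -1.12 and -1.21. The direct differences, K498A minus DE636AA, were -0.39 (SE 0.22) for ACTA2, -0.04 (SE 0.14) for SMG5 and 0.02 (SE 0.21) for MAD2L1, each with an adjusted p of 1. These errors leave room for differences between the responses of both lines that the test could not show.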

How the data were processed

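RNA of ribosome-depleted libraries was measured in 48 libraries of 16 groups, of which the 12 libraries of K498A and WT cells carry the comparison. The deposited table holds expected counts per gene from RSEM, which the authors made from their reads. Per the submitters' processing notes, cutadapt, STAR, RSEM, DESeq2 and the build hg19 were used. Neither versions, nor annotation release, nor strand setting is given in the sources used here.

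The expected counts were rounded to whole numbers. All 48 libraries were fitted together with edgeR 4.0.16 in R 4.3.3 (16 group means, TMM scaling, quasi-likelihood test), so that they shared 1 estimate of the spread. After edgeR's filter on low counts 19129 of 57820 genes were tested, with Benjamini-Hochberg adjustment over all of them and a threshold of 0.05. Fold changes and SEs are on the log2 scale, and CPM values are levels per library that are not corrected for gene length. List levels are means of log2 CPM with a prior count of 2. Gene types, lengths and overlaps came from GENCODE v29 on another build, so no gene coordinates are given.

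Genes named are UPF1, the 15 highest and 10 lowest called genes whose level averaged 5 CPM or more over the 12 libraries, up to 4 called members of each list with the largest absolute value, and BAG1, RP9P, GABARAPL1, ERN1, SMG1 and SMG5 whatever their value. With siNT they are the 3 highest and 3 lowest called at the same level. Clone, pseudogene and antisense symbols were left out of the rankings. Further list members were named after their values were seen. The members and lists were chosen with earlier results of these data known. Replicate numbers were not used as pairs: 15 of 18 correlations of deviations between libraries with the same number were over 0.1, and the lowest was 0.0915. Alternatives were RLE scaling, no filter, DESeq2 1.42.0, a replicate block, the comparison's own groups alone and leaving out each library. Some genes of the lists are counted but not reported singly here.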

Additional observations from a re-analysis of the deposited data

Results flagged for a closer look

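The responses to siUPF1 differed between lines by a test of the difference itself, at an adjusted p under 0.05 in edgeR's quasi-likelihood test, in 623 genes for K498A against WT, 2267 for CLIP against WT, 860 for DE636AA against WT and 2599 for K498A against CLIP. Among single genes, the K498A response was higher than that of WT by 1.71 on the log2 scale in ACTA2, 1.61 in EGR1 and 1.30 in ETV5. It was lower in METTL7A (-1.47), HTRA1 (-1.25) and MAD2L1 (-1.20).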

How the results depend on the processing

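Named genes kept their sign under every alternative run except when 1 library was left out, in 3 values that were not called: the differences of responses of CEBPE (-0.76 to 0.75) and CSF3R (-1.09 to 0.46), and UPF1 between the lines with siNT (-0.026 to 0.11). Of 65 named genes 49 kept their call in all 12 fits that left out 1 library and 16 did not. With a replicate block, which treats the shared numbers as pairs, 1041 genes were called for K498A against WT and 1427 for DE636AA against WT, and ERN1 passed for K498A against WT. The 18 correlations were all positive, from 0.0915 to 0.382, but 3 did not exceed the 0.1 asked of every one. The numbers were therefore not taken as pairs, and the main fit leaves any part they share in the spread. Fitted to their own groups alone, 490 genes were called for K498A against WT, of which 377 were among the 623. The counts were 3 for K498A against WT with siNT and 1143 with siUPF1. They were 497 for CLIP against WT, 457 for DE636AA against WT and 339 for K498A against CLIP. For K498A against WT, DNAH6, FILIP1L, RP9P, SNHG7, SLC3A2, LSS, FOSL1, DUSP5, CCND1 and ARRDC2 lost their calls in that fit. Without the filter on low counts 469 genes were called for K498A against WT, of which 286 were among the 623, and PTBP1, PDIA6, ACACA, TYMS, OAS3, VCL, ARRDC2, DUSP5, CCND1, FOSL1 and SLC3A2 lost their calls while BAG1 passed. There 65 genes were called with siNT and 42 between K498A and DE636AA. DESeq2 called 880 for K498A against WT, of which 605 were among the 623, and 12 with siNT. Without CLIP siUPF1 replicate 2, the counts were 1144 for K498A against WT, 9 with siNT and 1542 for DE636AA against WT. In the comparisons that use this library they were 1982 for CLIP against WT and 2079 for K498A against CLIP. Leaving out in turn each library of the groups that a comparison uses, with CLIP siUPF1 replicate 2 given apart above, gave 359 to 632 for K498A against WT, 1 to 6 with siNT, 1625 to 2051 with siUPF1, 5010 to 5588 for the K498A response, 4257 to 4808 for the WT response, 1731 to 3815 for CLIP against WT, 510 to 798 for DE636AA against WT, 1613 to 4483 for K498A against CLIP and 0 for K498A against DE636AA. The cause was not tested.

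With 3 libraries a group, small differences could not be shown. Intervals cover these libraries only, and line and clone cannot be told apart.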

Other observations

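Zinc finger genes, most of which encode DNA-binding repressors of the KRAB class, stood out among the higher genes. They were taken as all symbols that begin with ZNF, a set chosen after the values were seen, so counts are given with no test. Of 475 tested 50 were higher in the K498A response and none lower (10.5%), beside 226 of the 18654 other genes (1.21%). In the K498A line 18.5% of them fell with siUPF1, beside 16.4% of other genes, and in the WT line 42.1% fell, beside 12.5% of other genes. The trait was not particular to K498A, as DE636AA shared it. Against the same WT libraries, 60 were higher and none lower in DE636AA (median 0.24), beside 1.78% and 2.72% of all genes. In CLIP 38 of the 475 were higher and 4 lower (median 0.05), beside 8.08% and 3.77% of all genes. The share of higher genes in CLIP was thus near that of all genes, so the trait was not seen there.

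ZNF568 had 49.6, 52.4 and 50.3 CPM in K498A siUPF1, 50.9, 57.5 and 51.7 CPM in K498A siNT, 32.2, 30.8 and 26.9 CPM in WT siUPF1 and 54.4, 57.6 and 51.7 CPM in WT siNT. Only WT siUPF1 was low, and the difference was 0.79 (SE 0.10, adjusted p = 5.89e-06 in edgeR's quasi-likelihood test). ZNF850 fell in both lines, by 0.22 in K498A (SE 0.08, adjusted p = 0.0256) and by 0.81 in WT (SE 0.08, adjusted p = 2.24e-10). ZNF317 instead rose in K498A by 0.51 (SE 0.06, adjusted p = 3.7e-08) and gave 0.03 in WT (SE 0.06, adjusted p = 0.762). The median difference of the 475 was 0.22, and their count of higher genes was 22 without WT siUPF1 replicate 3, the library that stood apart, 19 without K498A siUPF1 replicate 2, 24 without K498A siNT replicate 3, 25 without WT siNT replicate 2, 31 without K498A siNT replicate 1 or WT siNT replicate 1, 32 without K498A siUPF1 replicate 1 and 84 without CLIP siUPF1 replicate 2. It was 24 without the filter on low counts and 21 with the 4 groups fitted alone. The 3 genes named were also chosen after their values were seen.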
